A study of Homo sapiens with 4 samples.

Results

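Circular RNAs (circRNAs) that carry no circBase identifier, and that had reads in every library, were described in HepG2 cells, a long-established line from a human liver cancer. circBase is a public catalogue of circRNAs. The table names the rest by a running number after the prefix novel_circ_, and these are called numbered circRNAs here. The rule took each numbered circRNA with more than 0 reads in all 4 libraries, which left 892 of 4141 numbered circRNAs and of 11666 circRNAs in all. The members were chosen by their read counts in these same libraries, and their levels and ratios are given as a description. Whether a numbered circRNA is catalogued elsewhere cannot be read from the table.

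The 2 groups were HepG2 cells kept without glucose for 24 h and HepG2 cells labelled normal, with 2 libraries each and wild-type genotype in both. The glucose content of the normal medium is not given in the labels, nor is it said whether replicates are separate cultures. The p-values then measure only how these libraries spread, and that spread may be technical. RNA was depleted of ribosomal RNA and treated with RNase R, an exonuclease that digests linear RNA, before stranded libraries were made. No gene is named in the table, so liver markers could not be looked up, and no host gene, genome position or sequence of a numbered circRNA is given here. In bulk libraries a lower level in each cell and a loss from some cells cannot be told apart.

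A circRNA forms when a splice donor is joined to an acceptor upstream of it, which closes the RNA into a ring without a cap or a poly(A) tail. Such rings resist exonucleases and tend to be long-lived, and some are known to bind microRNAs or proteins. They are generally recognised by reads across the back-splice junction, which linear RNA of the same gene lacks.

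The libraries were shallow. Glucose-free replicates 1 and 2 held 102420 and 58776 circRNA reads, and normal replicates 1 and 2 held 133083 and 166071. The deposited level is the count scaled to 1000000 circRNA reads in the library (CPM), with no length term. The smallest count above 0 in the table was 2 reads, which equals 19.5 and 34.0 CPM in glucose-free replicates 1 and 2, against 15.0 and 12.0 CPM in normal replicates 1 and 2. Over members, 1 pair of libraries from different groups was closer than replicates were. This was seen over the 245 members with a mean of at least 10 reads per library. The counts of glucose-free replicate 2 and normal replicate 1 gave a chi-square of 203 for 244 degrees of freedom. Each of the other 5 pairs exceeded its degrees of freedom. The rule left out circRNAs listed at 0 in a library, so these values do not cover such disagreements. Among numbered circRNAs listed at 0 in exactly 1 library, it was glucose-free replicate 2 for 598 and normal replicate 1 for 46. The files used here do not settle whether the labels of these 2 libraries are right, and a wrong label would change what every glucose-free over normal value means. The test, the ratios and the share of reads are given with all libraries and with each of these left out in turn. They were not computed with both left out together.

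Reads in all 4 libraries were found for a smaller share of numbered than of circBase circRNAs, and within ranges of like level neither kind was ahead throughout. The 892 members are 21.5% of the numbered circRNAs, and 3072 of 7525 circBase circRNAs, or 40.8%, had reads in all 4 libraries. Among circRNAs with a mean of 20 to 40 CPM the share was 17.6% of 1164 numbered and 16.2% of 1655 circBase circRNAs. From 40 to 80 CPM it was 61.0% of 651 numbered and 63.8% of 1590 circBase circRNAs, and from 80 to 160 CPM it was 82.8% of 239 and 80.8% of 1099. At 160 CPM and above it was 80.7% of 114 numbered and 84.4% of 1069 circBase circRNAs. The 1596 numbered circRNAs with reads under 20 CPM could not be in all 4 libraries. The smallest count above 0, 2 reads, already gives a mean of 20.2 CPM when found in each library. These shares have no test, since the level and the rule both come from the same counts.

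Just outside the rule stood 1289 numbered circRNAs listed at 0 in exactly 1 library. The missing library was glucose-free replicate 2 for 598 and glucose-free replicate 1 for 444, against normal replicate 1 for 46 and normal replicate 2 for 201. The 2 shallower libraries thus held most of these zeros. Their median mean level was 27.8 CPM, and 50 of them had a mean of at least 10 reads. The most abundant of them, novel_circ_0019171, had 167 reads in glucose-free replicate 1 and a listed 0 in replicate 2, against 127 and 204 reads in normal replicates 1 and 2. The next, novel_circ_0025817, had 115 reads in glucose-free replicate 1 and a listed 0 in replicate 2, against 128 and 211 reads in the normal libraries. Both would rank among the 10 most abundant members by mean level. No source used here says what a listed 0 means. Just inside the rule stood 291 members with 2 reads in at least 1 library, with a median mean level of 37.9 CPM.

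Levels of the members spread over a wide range, and most of them were low. The mean over the 4 libraries ran from 20.2 to 5017 CPM with a median of 60.1 CPM, and the 90th percentile was 4.91 times the 10th. Of the 892 members, 699 (78.4%) lay below 100 CPM, 193 reached 100 CPM, 61 reached 200 CPM and 11 reached 500 CPM. For all 3072 circBase circRNAs read in every library the median was 94.4 CPM and the highest 16304 CPM, with 47.2% at 100 CPM or more. A mean of 10 reads per library was reached by 27.5% of members and by 53.4% of these circBase circRNAs. Of the 38879 member reads, 50% lay in 137 members, and 18.6% lay in the 10 with the most reads.

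**Figure D1:**
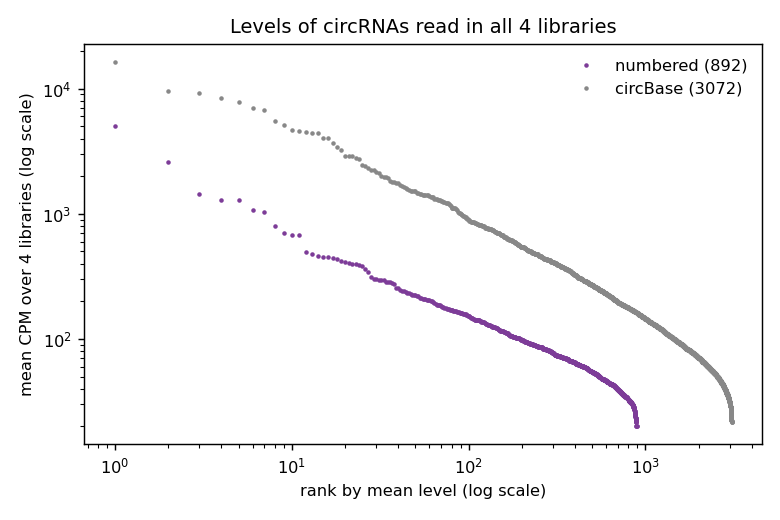
Mean CPM over the 4 libraries (log scale) against rank (log scale) for the 892 numbered and 3072 circBase circRNAs read in all 4 libraries, with 1 point for each circRNA. The numbered circRNAs start at 5017 CPM and the circBase circRNAs at 16304 CPM, and both end near 20 CPM, at 20.2 and 21.7 CPM.

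By library, the median count of the members was 6 in glucose-free replicate 1 and 4 in glucose-free replicate 2, against 8 in each normal library. In CPM these medians were 58.6 and 68.1 in the glucose-free libraries and 60.1 and 48.2 in the normal libraries, so the groups overlapped. A count of 2 reads has an exact 95% Poisson interval of 0.242 to 7.22 reads, and a count of 10 reads one of 4.80 to 18.4, which cover counting error only. Counts at the minimum of 2 reads were found for 105 and 186 members in glucose-free replicates 1 and 2, against 44 and 55 in normal replicates 1 and 2.

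The share of all circRNA reads that fell on members was 8.83% and 10.02% in glucose-free replicates 1 and 2, against 8.53% and 7.58% in normal replicates 1 and 2. The means were 9.43% ± 0.839 and 8.05% ± 0.673 (SD, n = 2 each), and both glucose-free libraries lay above both normal libraries, with no test made. The matched circBase circRNAs, 892 chosen one to one for a like mean CPM, took 8.67% and 9.71% in the glucose-free libraries, against 8.62% and 7.96% in the normal libraries, which is the same order. All numbered circRNAs together, which the rule did not filter, took 15.0% and 15.1% of reads in the glucose-free libraries, against 16.5% and 15.9% in the normal libraries, so the order of the groups was the opposite. Members held 59.1% and 66.2% of the numbered reads in glucose-free replicates 1 and 2, against 51.6% and 47.7% in normal replicates 1 and 2. The rule asks for reads in the shallowest library, and its part in these shares was not tested. The difference in the share of all reads was 1.37 percentage points for members and 0.895 for matched circBase circRNAs. For members it was 0.858 over those with at least 5 reads in every library, 0.617 over those with a mean of at least 10 reads, 0.779 without glucose-free replicate 2, 0.896 without normal replicate 2, 1.97 without glucose-free replicate 1 and 1.85 without normal replicate 1.

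The most abundant member, novel_circ_0012789, stood at 4452 and 5853 CPM in glucose-free replicates 1 and 2, against 5523 and 4239 CPM in normal replicates 1 and 2. It was first among members in each library and 10th of all 11666 circRNAs by mean level. The groups overlapped, at 5152 ± 990 and 4881 ± 908 CPM (SD, n = 2 each). Scaling by TMM (trimmed mean of M values) was done over all circRNAs and, as in the edgeR fit, over the 2803 circRNAs tested. Its ratio was 1.06 in deposited CPM, 0.893 with TMM over all circRNAs and 0.980 with TMM over those tested, so its direction depended on the scaling. The second, novel_circ_0025275, had 1865 and 2654 CPM in the glucose-free libraries, against 2961 and 2854 CPM in the normal libraries. Both glucose-free values were lower, with a wider gap between the glucose-free replicates (558 CPM SD) than between the normal replicates (75.2 CPM SD). In edgeR's quasi-likelihood test its log2 fold change was -0.48 (standard error 0.19, n = 2 each, adjusted p = 0.999).

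Of the 10 most abundant members, 3 were higher in both glucose-free libraries than in both normal libraries, 3 were lower, and for 4 the groups overlapped. Across all 3964 circRNAs read in every library, of any depth, 25.2% were higher and 10.7% lower without overlap in deposited CPM. Among the 1886 of these with a mean of at least 10 reads it was 23.6% and 14.1%. With TMM over all circRNAs 2 of the 10 were higher, 5 lower and 3 overlapped, where 14.6% of the 3964 were higher and 21.8% lower. With TMM over those tested 2 were higher, 4 lower and 4 overlapped, where 20.8% were higher and 14.7% lower. None of the 10 passed edgeR's test at an adjusted p of 0.05.

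The 3 higher ones were novel_circ_0003701, novel_circ_0005594 and novel_circ_0012378. For novel_circ_0005594 the values were 1533 and 1786 CPM in glucose-free replicates 1 and 2, against 969 and 837 CPM in normal replicates 1 and 2, a ratio of 1.84. This gap was larger than either replicate gap, and the circRNA had the smallest unadjusted p among members with a positive fold change (edgeR log2 fold change 0.77, standard error 0.18, unadjusted p = 0.0126, adjusted p = 0.999). For novel_circ_0012378 the values were 918 and 800 CPM in the glucose-free libraries, against 616 and 452 CPM in the normal libraries, a ratio of 1.61. Its edgeR log2 fold change was 0.60 (standard error 0.27, adjusted p = 0.999). Both kept non-overlapping groups with either TMM scaling. The ratios of novel_circ_0005594 and novel_circ_0012378 were 1.56 and 1.38 with TMM over all circRNAs, and 1.71 and 1.51 with TMM over those tested. For novel_circ_0003701 the values were 1777 and 1412 CPM in the glucose-free libraries, against 1307 and 1295 CPM in the normal libraries, and with either TMM scaling its groups overlapped.

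The 3 lower ones were novel_circ_0025275, given above, novel_circ_0023609 and novel_circ_0022846. For novel_circ_0023609 the values were 791 and 1004 CPM in glucose-free replicates 1 and 2, against 1120 and 1228 CPM in normal replicates 1 and 2 (edgeR log2 fold change -0.50, standard error 0.21, adjusted p = 0.999). For novel_circ_0022846 they were 674 and 596 CPM in the glucose-free libraries, against 751 and 711 CPM in the normal libraries. All 3 were also lower without overlap with either TMM scaling.

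The most abundant member and 3 others of the 10 showed no separation of the groups in deposited CPM. For novel_circ_0019426 the values were 1328 and 1242 CPM in the glucose-free libraries, against 1345 and 1216 CPM in the normal libraries, a ratio of 1.003. With TMM over all circRNAs both its glucose-free values were lower, and with TMM over those tested the groups overlapped. For novel_circ_0014109 they were 1240 and 885 CPM in the glucose-free libraries, against 977 and 1204 CPM in the normal libraries. For novel_circ_0008158 they were 566 and 902 CPM in the glucose-free libraries, against 864 and 855 CPM in the normal libraries, so that glucose-free replicate 1 alone stood apart, and with either TMM scaling both glucose-free values were lower. Most of the 10 were among the most abundant in each library. Glucose-free replicates 1 and 2 had 8 and 9 of them among their own 10 most abundant members, and normal replicates 1 and 2 had 10 and 9.

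**Figure D2:**
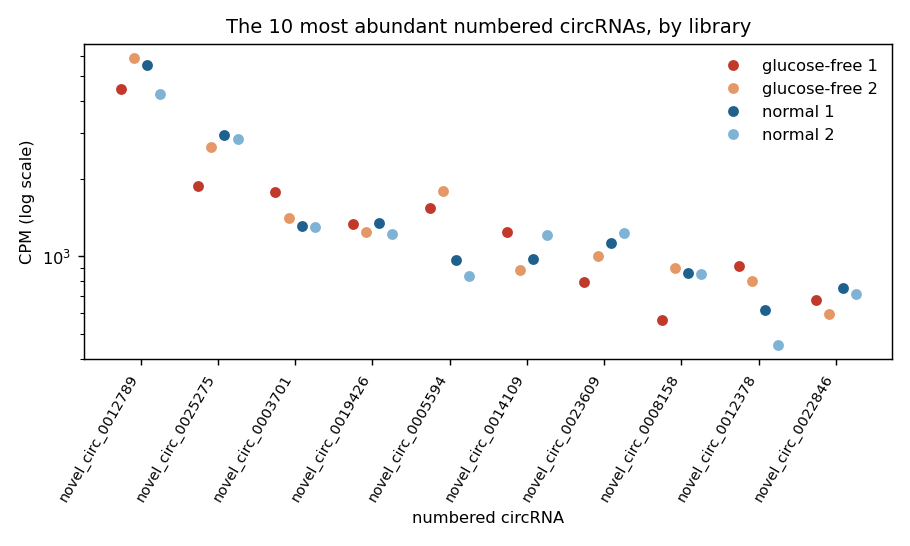
CPM (log scale) of the 10 numbered circRNAs with the highest mean level in each of the 4 libraries, with 1 point per library and the glucose-free libraries left of the normal ones. The points of novel_circ_0005594 and novel_circ_0012378 separate the groups upward without glucose, those of novel_circ_0012789 are interleaved, and all values lie between 452 and 5853 CPM.

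Replicates agreed to within 2-fold for about 3 in 4 members. Between the glucose-free replicates the median absolute difference was 0.58 on the log2 CPM scale, a 1.49-fold gap, and 658 of 892 members (73.8%) lay within 2-fold. Between the normal replicates it was 0.57, a 1.48-fold gap, with 675 members (75.7%) within 2-fold. Among the members with a mean of at least 10 reads the shares were 77.6% in the glucose-free pair and 87.8% in the normal pair. Across these 245 members, which are not independent replicates, Pearson's r of log2 CPM was 0.708 in the glucose-free pair and 0.804 in the normal pair, and Spearman's rho was 0.557 and 0.637.

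Libraries of different groups were not uniformly farther apart than replicates. Glucose-free replicate 2 and normal replicate 1 had the smallest median difference of the 6 pairs, at 0.50 on the log2 scale, with 82.1% of members within 2-fold. Among members with a mean of at least 10 reads this pair lay within 2-fold for 92.7%, with an r of 0.869. Glucose-free replicate 2 and normal replicate 2 had the widest median difference over all members, at 0.73, with 63.1% within 2-fold. Glucose-free replicate 1 differed by 0.60 from normal replicate 1 and by 0.70 from normal replicate 2.

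**Figure D3:**
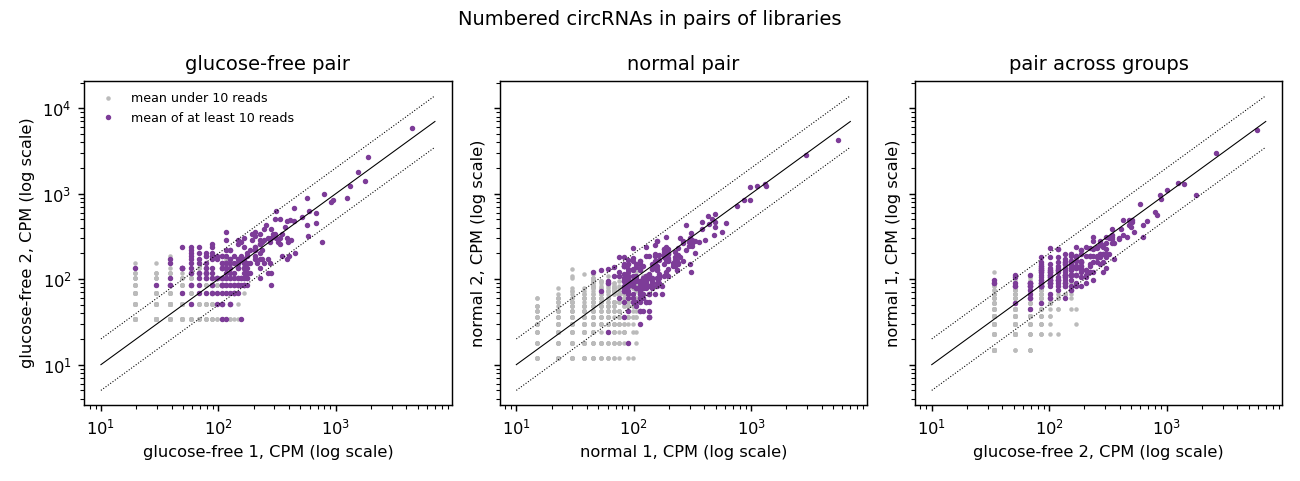
CPM (log scales) of the 892 members in the glucose-free pair, the normal pair and the pair of glucose-free replicate 2 and normal replicate 1, with 1 point per circRNA, purple where the mean is at least 10 reads and grey otherwise. The solid line marks equal levels and the dotted lines a 2-fold difference; 73.8%, 75.7% and 82.1% of points lie between the dotted lines in the 3 panels.

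Chi-square per degree of freedom was also lowest for the pair of glucose-free replicate 2 and normal replicate 1. It is near 1 when 2 libraries differ by counting error alone and circRNAs are not chosen by these counts. Among members with a mean of at least 10 reads it was 1.73 for the glucose-free replicates and 1.69 for the normal replicates. Across the groups it was 0.831 for glucose-free replicate 2 with normal replicate 1, 2.31 for glucose-free replicate 2 with normal replicate 2, 2.85 for glucose-free replicate 1 with normal replicate 1 and 4.202 for glucose-free replicate 1 with normal replicate 2. Many counts are small and the rule drops the lowest, so the statistic is used as a description. Over all 892 members it was 1.04 for the glucose-free replicates and 1.24 for the normal replicates. For glucose-free replicate 2 with normal replicate 1 it was 0.583, and the part of the rule in these values was not tested. Where libraries differ by more than counting error the statistic also grows with depth, and the pairs differ in depth. In the 892 matched circBase circRNAs, with 851 pairs within 0.01 on the log2 scale, the values at a mean of at least 10 reads were 2.19 for the glucose-free replicates, 3.10 for the normal replicates and 0.741 for glucose-free replicate 2 with normal replicate 1. The closeness of that pair was thus seen in both kinds of circRNA. Both kinds were limited to circRNAs read in all 4 libraries, so the circBase values are not separate support for it. Between the normal replicates the value was lower in members than in matched circBase circRNAs, a difference that was not tested.

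**Figure D4:**
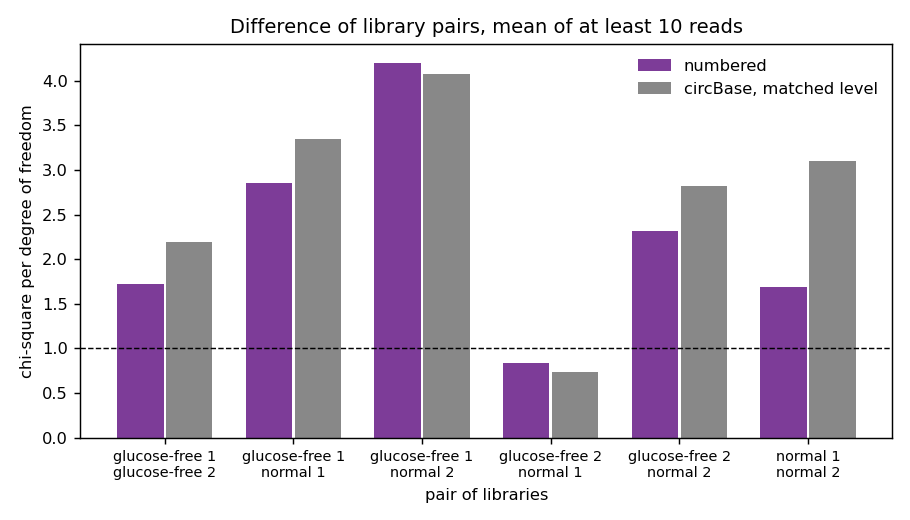
Chi-square per degree of freedom for each of the 6 pairs of libraries, over circRNAs with a mean of at least 10 reads, for 245 numbered and 242 matched circBase circRNAs. The dashed line marks 1, which counting error alone would give if circRNAs were not chosen by these counts. The pair of glucose-free replicate 2 and normal replicate 1 lies below it at 0.831 and 0.741, and the other pairs lie between 1.69 and 4.202.

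As single examples of replicate error, the member with the widest gap between the glucose-free replicates at a mean of at least 10 reads was novel_circ_0003316, with 2 and 8 reads, or 19.5 and 136 CPM, a 6.97-fold gap, against 21 and 15 reads in the normal replicates. The widest gap between the normal replicates was that of novel_circ_0022425, with 27 and 10 reads in the glucose-free replicates, against 12 and 3 reads in the normal replicates, where 90.2 and 18.1 CPM differ 4.99-fold.

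No member differed between glucose-free and normal cells at the threshold of the test. Of the 892 members, 320 passed edgeR's filter on low counts, and 0 of them were past an adjusted p of 0.05, with adjustment over all 2803 circRNAs tested. Of all circRNAs tested, 0% passed upward and 0% downward. At an unadjusted p under 0.05, 7 members were higher and 1 was lower, where 1.03% of all tested circRNAs were higher and 1.28% lower. DESeq2 also called 0 members after adjustment, and 0 had an unadjusted p under 0.05. With 2 libraries a group, 0 calls does not show that the levels were alike. The median edgeR log2 fold change was 0.04 for members tested, with 171 of 320 above 0, and -0.03 for all tested circRNAs.

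The members with the smallest p differed by small numbers of reads. After novel_circ_0005594, the smallest p with a positive fold change was that of novel_circ_0023688, with counts of 18 and 11 in the glucose-free libraries, against 11 and 9 in the normal libraries. In CPM this was 181 ± 8.06 without glucose and 68.4 ± 20.1 in normal cells (SD, n = 2 each; edgeR log2 fold change 1.30, standard error 0.42, adjusted p = 0.999). The smallest p with a negative fold change was that of novel_circ_0025815, with 3 and 2 reads in the glucose-free libraries, against 16 and 18 reads in the normal libraries. Its level was 31.7 ± 3.35 CPM without glucose and 114 ± 8.37 CPM in normal cells (SD, n = 2 each; edgeR log2 fold change -1.92, standard error 0.59, adjusted p = 0.999). The next, novel_circ_0023812, had 2 and 3 reads in the glucose-free libraries, against 14 and 20 reads in the normal libraries (edgeR log2 fold change -1.85, standard error 0.71, adjusted p = 0.999). In each of the 3 the groups did not overlap, and the differences exceeded the replicate gaps without passing the adjusted test.

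An alternative added after seeing the data limited the test to circRNAs read in all remaining libraries. It also left out 1 of the 2 libraries whose labels the files used here do not settle, and some members then passed. With the same library left out but without the limit, no member passed. The members tested numbered 380 without normal replicate 1 and 465 without glucose-free replicate 2. Without normal replicate 1, 3 members passed, where 0.47% of 2552 circRNAs passed, and without glucose-free replicate 2, 8 members passed, where 2% of 3208 passed. All of these member calls were upward, and leaving out either other library gave 0. Blocked by replicate number, the limited test on all 4 libraries called 2 of 320 members tested, where 0.633% of all circRNAs tested passed. With all 4 libraries the same limited test without the block called 0 members. At an unadjusted p below 0.05 it had 31 of 320 members upward and 4 downward, where 6.11% and 3.03% of 2211 circRNAs were higher and lower. The same 3 members passed without normal replicate 1 and without glucose-free replicate 2. They were novel_circ_0022425, given above for its replicate gap, and novel_circ_0013638 and novel_circ_0017758, both singled out after their values were seen. For novel_circ_0013638 there were 596 and 630 CPM in glucose-free replicates 1 and 2, against 308 and 120 CPM in normal replicates 1 and 2, a ratio of 2.86. Its edgeR log2 fold change was 2.17 without normal replicate 1 and 1.40 without glucose-free replicate 2. For novel_circ_0017758 there were 449 and 204 CPM in the glucose-free libraries, against 105 and 48.2 CPM in the normal libraries, a ratio of 4.26. Its edgeR log2 fold change was 2.64 without normal replicate 1 and 2.47 without glucose-free replicate 2. In these fits 1 group has a lone library, whose spread is taken to equal that of the other group. The limit also drops circRNAs with a listed 0, and so was set on the counts tested. With all 4 libraries, 1.03% of circRNAs were higher and 1.28% lower at an unadjusted edgeR p under 0.05 without the limit. With the limit the shares were 6.11% and 3.03%. The calls under the limit are therefore given as a description.

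The ratio of mean CPM, glucose-free over normal, was above 1 for most members, and this lean was largest where reads were fewest. The median log2 ratio was 0.30 with quartiles of -0.10 and 0.70, and 628 of 892 members (70.4%) lay above 0. Among the matched circBase circRNAs the median was 0.23, with 578 of 892 (64.8%) above 0, and among all 3964 circRNAs read in every library it was 0.18, with 63.3% above 0. A ratio of at least 2 was reached upward by 105 members (11.8%) and downward by 12 (1.35%), where 9.33% and 1.79% of the 3964 did so. Both glucose-free libraries lay above both normal libraries for 250 members (28.0%) and below both for 79 (8.86%), where 25.2% and 10.7% of the 3964 did so. The members' shares lay near these backgrounds.

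By mean reads per library, the median log2 ratio of members was 0.55 under 5 reads (275 members), 0.25 from 5 to 10 (372), 0.08 from 10 to 20 (169), 0.17 from 20 to 50 (59) and -0.04 at 50 or more (17). In the matched circBase circRNAs it was 0.44, 0.14, 0.14, -0.01 and -0.12 over the same ranges. Under 5 reads 233 of 275 members had a ratio above 1, where 224 of 273 matched circBase circRNAs did so. Over the 245 members with a mean of at least 10 reads the median was 0.09, with 142 above 0, against 0.06 in matched circBase circRNAs. A ratio of at least 2 was then reached upward by 23 members (9.39%) and downward by 2 (0.816%), where 4.61% and 1.64% of 1886 circRNAs of that depth did so. Both glucose-free libraries lay above both normal libraries for 62 members and below both for 31, where 23.6% and 14.1% did so. The minimum of 2 reads stands at a higher CPM in the shallower libraries, and its part in the lean was not tested beyond these values. As an example at that minimum, chosen after its values were seen, novel_circ_0004581 had 2 reads in each of the 4 libraries, which gave 19.5 and 34.0 CPM in glucose-free replicates 1 and 2, against 15.0 and 12.0 CPM in normal replicates 1 and 2, a ratio of 1.98. In all, 4 of 892 members had 2 reads throughout.

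**Figure D5:**
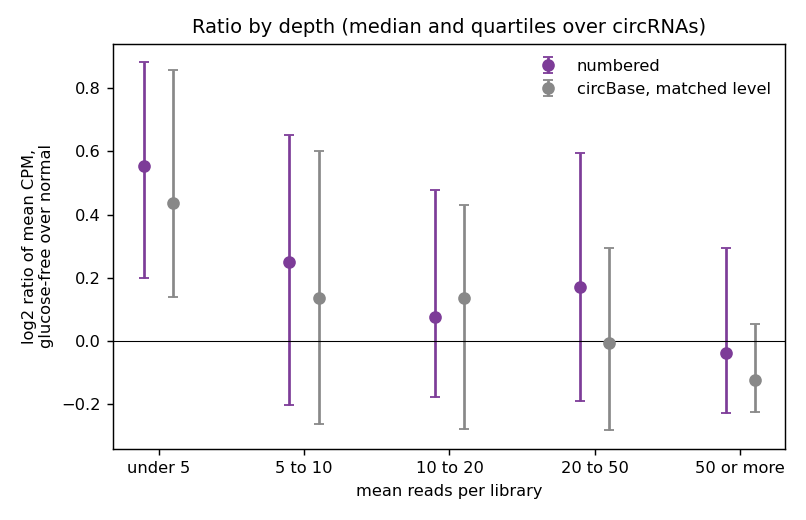
Log2 ratio of mean CPM, glucose-free over normal, against the mean reads per library, for the 892 numbered circRNAs and the 892 matched circBase circRNAs, with points for medians and bars for quartiles over circRNAs. The median of the numbered circRNAs is 0.55 under 5 reads and -0.04 at 50 or more, where 17 of them lie.

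The lean was smaller with either TMM scaling. With TMM over all circRNAs the median log2 ratio was 0.06 for members, with 480 of 892 above 0, and -0.06 for all 3964 circRNAs read in every library. With TMM over those tested it was 0.19 for members, with 550 above 0, and 0.07 for the 3964. With TMM over all circRNAs both glucose-free libraries lay above both normal libraries for 161 members and below both for 152, where 14.6% and 21.8% of the 3964 did so. With TMM over those tested the numbers were 218 and 111, where 20.8% and 14.7% did so. Leaving out a library also moved the values. Without glucose-free replicate 2 the median log2 ratio of members in deposited CPM was 0.11 with 492 of 892 above 0, and without normal replicate 1 it was 0.42 with 622 above 0. In the same order it was 0.03 and 0.32 for matched circBase circRNAs, and 0.05 and 0.27 for the 3964. Glucose-free replicate 2, the shallowest library, held the highest CPM of the 4 for 395 members and glucose-free replicate 1 for 239, against 123 for normal replicate 1 and 135 for normal replicate 2. Among the members with a mean of at least 10 reads the numbers were 85 and 72 for glucose-free replicates 2 and 1, against 39 and 49 for normal replicates 1 and 2.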

How the data were processed

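One table holds whole read counts per circRNA that the authors deposited without normalization, and depth-scaled CPM values. The CPM columns are headed tpm, per the file headers, and each deposited value equals the count over its column total times 1000000 within 4.22e-06. The submitters' processing notes name the hg19 build and DESeq2, with no role. The sources used here give neither aligner nor circRNA caller. No source says whether a read minimum was set. The members and the comparisons were chosen with earlier results of these data known.

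Counts were tested with edgeR 4.0.16 (R 4.3.3; quasi-likelihood test, TMM, filterByExpr defaults, library sizes over the 2803 circRNAs that passed, Benjamini-Hochberg adjustment) with group as the term. Simulated data gave every circRNA the same spread. There this fit mostly recovered the larger changes at a low spread, but called none at the spread estimated over all circRNAs tested. A count of 0 calls over all circRNAs tested thus has little power behind it. Those tested include circRNAs with a listed 0, which members lack, so the power for members alone was not measured. Scaled CPM used TMM factors over all circRNAs or over those tested. Standard errors come from the ratio of the unsigned log2 fold change to the root of F. Alternatives were RLE factors, column totals, other filters, DESeq2 1.42.0, limma 3.58.1 on log2(CPM + 1) and log2(CPM + 0.1), a replicate block and each library left out. Each member, by falling mean CPM, was matched to the nearest circBase circRNA not yet taken. Named circRNAs were the 10 most abundant members, the 2 with the smallest p per direction, the widest replicate gap per group at a mean of at least 10 reads, and the 2 most abundant numbered circRNAs listed at 0 in 1 library.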

Additional observations from a re-analysis of the deposited data

How the results depend on the processing

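The count of 0 members past an adjusted p of 0.05 was also found with RLE factors, column totals, no filter, at least 10 reads in 2 libraries, DESeq2, limma with either pseudocount and circRNAs read in all 4 libraries. Deviations from the group mean correlated at -0.2 between libraries sharing a replicate number, over the circRNAs tested. The replicate block gave 0 member calls, and so did a crossed pairing added after seeing the data. The block limited to circRNAs read in all 4 libraries, also added later, gave 2, where 0.633% of 2211 passed. Leaving out 1 library gave member calls only in fits limited to circRNAs read in all remaining libraries. Without that limit no member was called, though other circRNAs were called with either glucose-free library left out. In each of these fits 1 group has a lone library. The cause was not tested for any change in this part. With all 4 libraries, members at an unadjusted p under 0.05 numbered 0 (DESeq2) to 35 (31 higher and 4 lower, circRNAs read in all 4 libraries), against 8 as reported. The median log2 ratio of members was 0.058 with TMM over all circRNAs, 0.19 with TMM over those tested (added after seeing the data), 0.14 with RLE scaling and 0.11 to 0.42 with 1 library left out. It was 0.18 to 0.50 where the members were also chosen again from the other 3 libraries. The replicate gap (median absolute log2 difference) in the glucose-free pair was 0.59 with TMM over all circRNAs, 0.52 at a mean of at least 10 reads and 0.51 at 100 CPM. In the normal pair it was 0.43 and 0.41 at these minimums, and between glucose-free replicate 2 and normal replicate 1 it was 0.44 with TMM over all circRNAs, 0.34 at 10 reads and 0.34 at 100 CPM. The share difference stayed above 0 throughout, and the matched circBase median was 0.16 with 3 neighbours and 0.15 unmatched. Uncalled log2 fold changes turned sign for 3 named members. With 1 library left out, novel_circ_0012789 ran from -0.2417 to 0.09065 (-0.2353 to 0.1012 over circRNAs read in all remaining libraries, with 0.0421 without glucose-free replicate 1), and it was 0.0090 at 10 reads in 2 libraries. On the same 2 footings novel_circ_0003701 ran from -0.09519 to 0.3386 (-0.1098 to 0.3436), and novel_circ_0014109 from -0.5201 to 0.07204 (-0.5376 to 0.07437, with 0.05773 without normal replicate 2). Depth limits single members, whose median count was 4 to 8 reads.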

Other observations

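The running numbers of the numbered circRNAs reach from 12 to 28942 for 4141 entries. In successive blocks of 5000 numbers the share of entries that were members was 20.9%, 17.9%, 21.6%, 24.6%, 23.4% and 19.7%. What the order of the numbers follows is not given in the sources used here.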
